A study of Mus musculus with 3 samples.

Results

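The cells described here are the TAC2 class of the mouse corneal epithelium, set against the TAC1 class of the same tissue. Both names are the authors' own cell annotation in the deposited metadata, and the abbreviation is not spelled out in the labels; it is commonly used for transit-amplifying cells, the dividing progeny of stem cells. Cells were taken by that annotation alone. TAC2 held 3186 cells and TAC1 held 4136, together 7322 of 38111 cells in 8 classes. All cells came from healthy C57BL/6J mice, with no treatment, and 3 libraries were made from pooled corneas. Library 1 pooled 4 corneas of 2 male mice aged 20 weeks. Library 2 pooled 4 corneas of 2 female mice aged 11 weeks. Library 3 pooled 7 corneas of 7 male mice aged 10 weeks. Age, sex and number of animals thus changed together between libraries, while each library supplied both classes: TAC2 cells numbered 755, 990 and 1441 and TAC1 cells 1340, 1640 and 1156 in libraries 1, 2 and 3.

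The cornea is covered by a stratified epithelium in which the basal layer divides, and daughter cells move up through the wing cell layers to the superficial layer. A dividing cell licenses its replication origins in G1 by loading the MCM helicase, copies its DNA and makes histones in S phase, and then accumulates the cyclins, kinases and spindle proteins that carry it through G2 and mitosis. Transcripts of these steps are made in waves: genes with E2F sites peak near the start of S phase. Genes whose promoters hold CCAAT boxes and CHR elements, the latter bound by the DREAM and MuvB complexes, peak in G2 and mitosis.

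The unit of comparison was the sum of UMI counts (unique molecular identifiers, 1 for each captured transcript) over all cells of a class in a library, giving 3 sums a side. Levels are counts-per-million values (CPM, TMM-scaled), listed for libraries 1, 2 and 3 in that order. The TAC2 sums held 11447707, 13432511 and 12294867 UMIs, and the TAC1 sums 21445207, 21100347 and 9947365 UMIs. Median UMIs per cell were lower in TAC2 in all 3 libraries (13033, 12016 and 7277, against 16632, 12960 and 7776 in TAC1). The median mitochondrial share was 1.74% ± 0.215 in TAC2 and 1.88% ± 0.168 in TAC1 (SD, n = 3 libraries). Computed doublet scores had a lower median in TAC2 (0.0370 ± 0.00216) than in TAC1 (0.0505 ± 0.00373), but the cells among the highest 10% of scores made up 10.3%, 13.5% and 13.9% of TAC2 and 12.1%, 13.4% and 7.53% of TAC1 in libraries 1, 2 and 3. Between pairs of libraries 32 to 57 cell barcodes were shared, 4 of them among the TAC2 and TAC1 cells. The annotation was made from the same expression values, by a procedure not given in the sources used here, so the tests below show how repeatable the differences were over 3 libraries and not whether the classes are distinct. The libraries are separate pools of animals.

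TAC2 and TAC1 differed in opposite directions along the cell cycle. Mitotic and clustered histone transcripts rose in TAC2, by 82.4-fold for Nusap1 and 83.2-fold for Ccnb2, while transcripts of origin licensing were lower, 3.13-fold for Mcm2 and 3.14-fold for Gins2. Of 11760 genes tested, 4613 (39.2%) passed edgeR's quasi-likelihood test at a Benjamini-Hochberg adjusted p under 0.05, 2190 of them (18.6% of genes tested) higher and 2423 (20.6%) lower in TAC2. Most of the differences were small, with a median size of 0.39 log2 units among the called genes that were higher and 0.37 among those that were lower. Large differences lay on one side: 442 called genes were at least 2-fold higher and 156 at least 2-fold lower, and beyond 8-fold the counts were 132 and 0. The split of the calls depended on scaling, since 68.9% of 5089 calls were higher in TAC2 when libraries were scaled by their totals alone, against 47.5% with TMM scaling. Without library 2 the number of calls was 2763, and without the library block it was 1374; no gene called under any alternative was called in the opposite direction here.

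**Figure D1:**
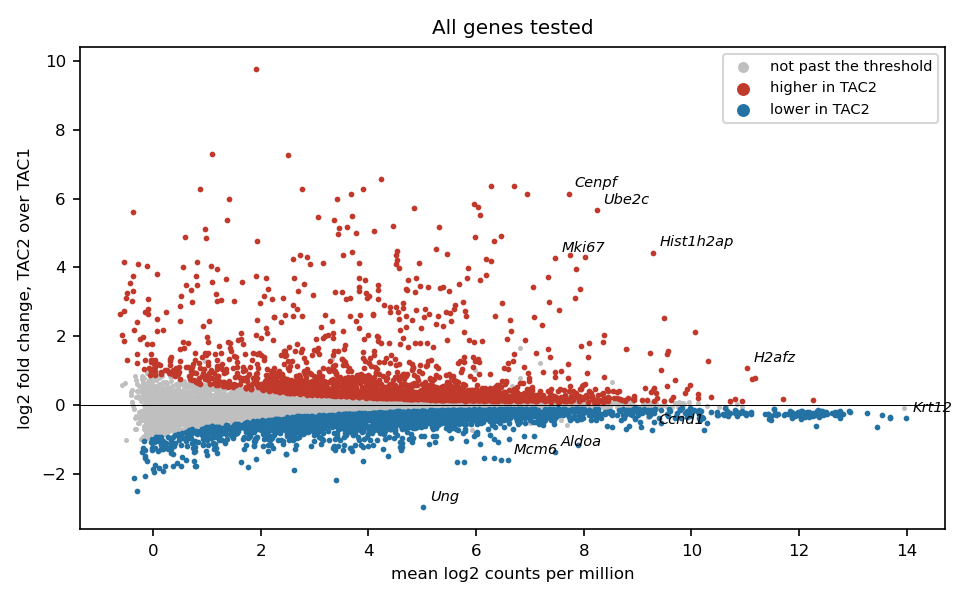
Each point is 1 of the 11760 genes tested, with its mean abundance (log2 CPM) on the horizontal axis and its log2 fold change, TAC2 over TAC1, on the vertical axis. Red points were higher and blue points lower in TAC2 at an adjusted p under 0.05. The upper cloud of cell division genes reaches past 6, while among the labelled genes on the lower side Ung, at -2.97, lies farthest from 0.

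All but 2 of the 82 tested genes of mitotic entry, kinetochore and spindle were higher in TAC2, none was lower, and their median log2 fold change was 3.27, against -0.01 over all genes tested. The 2 exceptions were Mybl2 and Pkmyt1, both of the mitotic entry list, at -0.13 and -0.07 on the log2 scale (adjusted p = 0.527 and 0.614, edgeR; named after their values were seen). The 12 largest rises among abundant genes, at a mean of at least 5 log2 CPM, were all genes of mitosis: Ccnb2, Nusap1, Cenpf, Cenpa, Hmmr, Cdkn3, Ube2c, Ccnb1, Aspm, Cdc20, Cenpe and Cdca3, with log2 fold changes between 4.76 and 6.38.

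Ccnb2, a B-type cyclin that activates the mitotic kinase Cdk1, had 133, 165 and 178 CPM in TAC2, against 1.05, 2.38 and 2.47 CPM in TAC1. Its partner cyclin Ccnb1 had 108, 134 and 168 CPM in TAC2, against 2.52, 2.67 and 3.65 CPM in TAC1. In both, all TAC2 libraries stood far above all TAC1 libraries, and the log2 fold changes were 6.38 ± 0.09 (SE) and 5.54 ± 0.07 (SE) (adjusted p = 2.7e-17 and 1.1e-19, edgeR). Cdk1 itself was less skewed, with 231, 231 and 242 CPM in TAC2, against 42.0, 41.7 and 34.6 CPM in TAC1 and a log2 fold change of 2.55 ± 0.06 (SE) (adjusted p = 3.7e-13, edgeR). Cdc25c, the phosphatase that switches Cdk1 on, was barely detected in TAC1 (0.475, 0.194 and 0.429 CPM) and had 20.6, 25.3 and 37.4 CPM in TAC2. Cks2, a small Cdk1-binding protein, had 312, 339.7 and 606 CPM in TAC2, against 41.2, 42.0 and 56.5 CPM in TAC1, with library 3 highest in both classes. Of the 20 genes of mitotic entry, 18 rose, with a median of 3.39.

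The kinetochore and its checkpoint moved together, with 32 of 32 genes higher in TAC2 and a median log2 fold change of 2.45. Cenpf, a large outer kinetochore protein, had 388, 424 and 451 CPM in TAC2, against 5.09, 6.21 and 6.65 CPM in TAC1, a difference of 6.15 ± 0.06 (SE) on the log2 scale (adjusted p = 2.5e-22, edgeR). Cenpa, the histone H3 variant that marks the centromere, had 207, 227 and 317 CPM in TAC2, against 2.95, 3.88 and 3.11 CPM in TAC1. Its TAC2 level was highest in library 3, while the TAC1 levels lay close together. Cenpe, a kinesin that carries chromosomes to the metaphase plate, had 114, 135 and 130.0 CPM in TAC2, against 4.04, 4.85 and 3.32 CPM in TAC1. Birc5 (survivin), of the chromosomal passenger complex, had 393, 459 and 477 CPM in TAC2, against 23.6, 37.0 and 22.9 CPM in TAC1 and rose by 3.97 on the log2 scale (adjusted p = 0.00256, edgeR).

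Spindle and cytokinesis genes rose in 30 of 30 cases, with the largest median of the 3 groups, 3.75. Nusap1, which bundles spindle microtubules, had 196, 216 and 224 CPM in TAC2, against 2.00, 2.28 and 4.18 CPM in TAC1 (6.36 ± 0.10 log2, adjusted p = 2.8e-13, edgeR). Hmmr, a microtubule-binding spindle protein, had 112, 128 and 141 CPM in TAC2, against 1.66, 2.43 and 2.68 CPM in TAC1, and Aspm, a spindle pole protein, had 65.5, 83.7 and 96.5 CPM in TAC2, against 2.47, 2.04 and 1.72 CPM in TAC1. Every TAC2 library stood above every TAC1 library for each of them. Prc1, which bundles the central spindle, had 274, 317 and 328 CPM in TAC2, against 20.0, 27.4 and 20.8 CPM in TAC1. Fam83d, a spindle protein that recruits the kinesin Kif22, was near the detection limit in TAC1 (0.380, 0.194 and 0.536 CPM) and had 21.0, 18.8 and 30.3 CPM in TAC2. Stmn1 (stathmin), which destabilises microtubules, was high in both classes, with 1159.8, 1268 and 1276 CPM in TAC2, against 169, 251 and 233 CPM in TAC1. Its log2 fold change was 2.52 ± 0.10 (SE) (adjusted p = 1.2e-04, edgeR), but without library 3 the same size of difference, 2.55, had an adjusted p of 0.121.

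**Figure D2:**
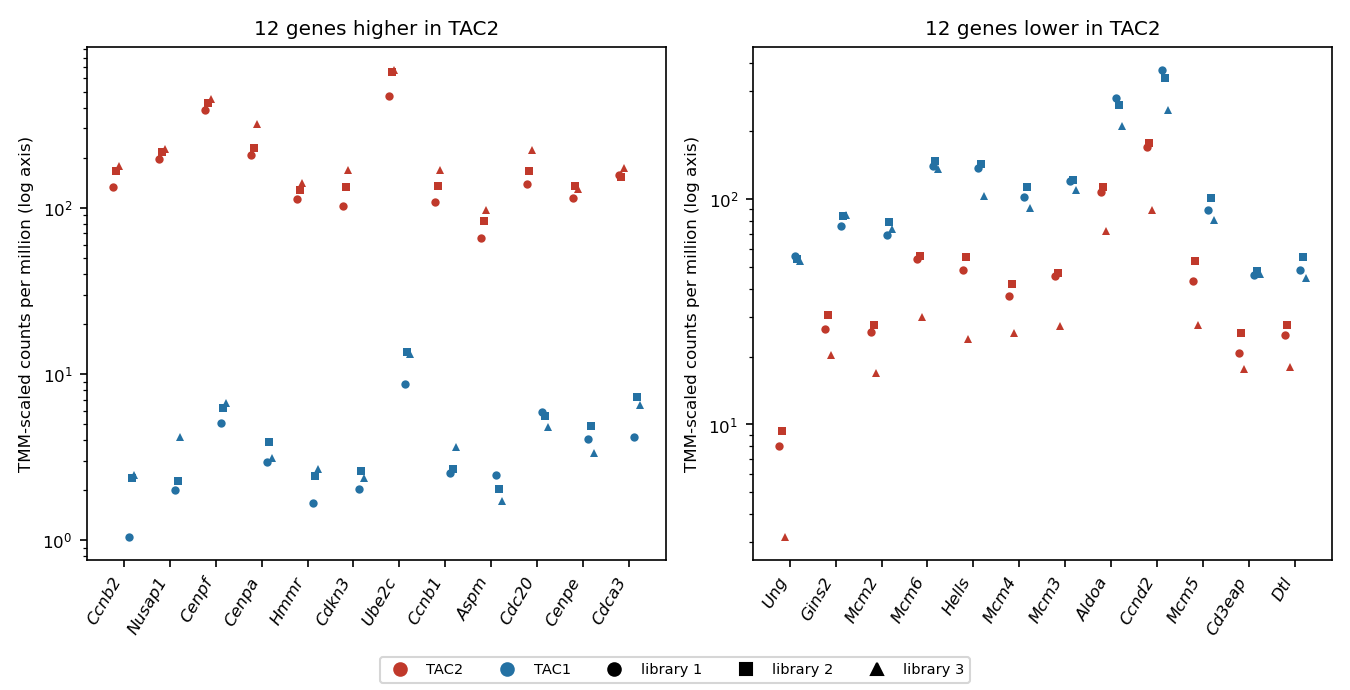
TMM-scaled CPM on a log axis for the 12 genes with the largest rise (left) and the 12 with the largest fall (right) in TAC2 among genes with a mean of at least 5 log2 CPM. Red points are TAC2 sums and blue points TAC1 sums, with the marker giving the library. In library 3 the TAC2 point is the lowest for all 12 genes on the right. The classes do not overlap for any of the 24 genes. That was largely fixed by picking the largest called changes with the same sign in every library.

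Chromosome compaction and exit from mitosis followed the same direction with smaller median differences. Of 24 genes of condensin, cohesin and chromosome compaction 22 rose, with a median of 1.49. H2afz, a histone H2A variant, had 2717, 2691 and 3138 CPM in TAC2, against 1297, 1342 and 1394 CPM in TAC1, and Hmgb1, a DNA-bending chromatin protein, had 1727, 1706 and 1936 CPM in TAC2, against 696, 755 and 767 CPM in TAC1. Both were abundant in TAC1 too, the classes did not overlap, and they rose by 1.08 and 1.27 on the log2 scale. Mki67, whose protein coats mitotic chromosomes and which is the usual marker of dividing cells, had 339, 372 and 316 CPM in TAC2, against 15.9, 22.9 and 13.6 CPM in TAC1, and Top2a, the topoisomerase that untangles sister DNA, had 425, 478 and 445 CPM in TAC2, against 36.8, 53.1 and 41.7 CPM in TAC1. Espl1 (separase), which cuts cohesin at anaphase, had 12.8, 15.2 and 17.3 CPM in TAC2 and 0.761, 0.873 and 0.429 CPM in TAC1. Of the 20 genes of the anaphase-promoting complex, which marks mitotic proteins for breakdown, and its partners 15 rose and none fell, with a median of 0.37. Its activator Cdc20 had 139, 165 and 224 CPM in TAC2, against 5.90, 5.58 and 4.82 CPM in TAC1 (4.90 ± 0.13 log2, adjusted p = 7.5e-07, edgeR) and its ubiquitin-conjugating enzyme Ube2c had 472, 653 and 670.5 CPM in TAC2, against 8.75, 13.5 and 13.2 CPM in TAC1 (5.67 ± 0.05 log2, adjusted p = 2.5e-22, edgeR). The second such enzyme, Ube2s, rose by 1.79 with 391, 471 and 414 CPM in TAC2, against 116, 129.8 and 123 CPM in TAC1.

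A further pair of mitotic genes, Cdkn3 and Cdca3, stood among the 12 largest rises. Cdkn3, a phosphatase that acts on cyclin-dependent kinases, had 102, 133 and 169 CPM in TAC2, against 2.04, 2.62 and 2.36 CPM in TAC1. Cdca3, an adaptor that triggers entry into mitosis, had 158, 153 and 174 CPM in TAC2, against 4.18, 7.23 and 6.54 CPM in TAC1. Both were higher in all TAC2 libraries, by 5.76 and 4.76 on the log2 scale (adjusted p = 1.8e-19 and 2.0e-06, edgeR).

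Tubulin genes rose in 8 of 10 cases (median 1.31). Their summed mean was 3613 CPM of the class's own total in TAC2, 1331 in TAC1 and 591 in basal cells. Wing (1775), superficial (2390) and conjunctival cells (2948) also lay above TAC1. Tubb5 had 1069, 1112 and 1148 CPM in TAC2, against 354, 361 and 477 CPM in TAC1 and Tubb4b had 1099, 1251 and 1075 CPM in TAC2, against 417, 391 and 346 CPM in TAC1; without library 3 the difference of Tubb4b was 1.54 with an adjusted p of 0.106 (edgeR). Tuba1c rose by 2.47 and Tubb6 by 2.59. Tubulin genes are close copies of each other, so reads may be split between them. Of 20 genes of the nuclear envelope and nuclear transport 14 rose and 1 fell (median 0.41). The importin Kpna2 rose most (2.60), with 59.1, 60.3 and 93.0 CPM in TAC2, against 11.5, 9.70 and 12.8 CPM in TAC1. Nup37, a nuclear pore subunit that also sits at kinetochores, rose by 1.26. The GTPase Ran, which steers transport and spindle assembly, had 719.8, 794 and 709.5 CPM in TAC2, against 499, 551 and 539 CPM in TAC1 and rose by 0.48, while its binding protein Ranbp1 had 375, 421 and 369 CPM in TAC2, against 368, 397 and 459 CPM in TAC1 and did not pass the test.

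The DNA just upstream of the strongly raised genes is shown because their promoters are known to share the CCAAT box and the cell cycle genes homology region (CHR). The window searched was the 250 bases before the annotated start (RefSeq, GRCm38.p6, first window listed for each gene), on both strands, for CCAAT and for the CHR as TTTGAA or TTCGAA. Of the 12 genes with the largest rise, all 12 with a window, 11 (91.7%) held a CCAAT, 10 held at least 2, 4 (33.3%) held a CHR and 0 held an E2F sequence (TTTGGCGC, TTTCCCGC, TTTGCCGC or TTTCGCGC). Among the 68 genes of the 3 mitosis lists with a window, 70.6% held a CCAAT, 30.9% a CHR and 26.5% both. Over the 9213 tested genes with a window these shares were 37.4%, 12.3% and 5.04%. In the 16 licensing genes with a window, a list that fell, they were 75.0%, 25.0% and 25.0%, close to those of the mitosis lists. The 120 bases before the start of 3 of the 12 most raised genes are printed 5′ to 3′ on the gene's strand. Matches to either motif are in capitals, and the 3 genes were picked after the matches were known. Cdc20 lies on chr4:118437344-118437463 (minus strand), Ube2c on chr2:164769809-164769928 (plus strand) and Ccnb2 on chr9:70421555-70421674 (minus strand).
Cdc20: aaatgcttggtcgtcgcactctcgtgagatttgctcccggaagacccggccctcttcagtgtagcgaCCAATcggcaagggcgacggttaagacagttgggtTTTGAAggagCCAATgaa
Ube2c: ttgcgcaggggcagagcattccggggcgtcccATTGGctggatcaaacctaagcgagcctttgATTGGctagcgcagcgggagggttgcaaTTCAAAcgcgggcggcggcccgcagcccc
Ccnb2: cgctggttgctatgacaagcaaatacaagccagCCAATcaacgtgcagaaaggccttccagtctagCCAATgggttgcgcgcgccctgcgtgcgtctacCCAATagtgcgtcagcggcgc
In Cdc20 the CHR (TTTGAA) stood close to the start with a CCAAT on either side of it. Ube2c showed 2 CCAAT boxes and a CHR, all 3 on the opposite strand (ATTGG and TTCAAA). Ccnb2 showed 3 CCAAT boxes, and its 1 CHR lay farther upstream than the bases printed. Nusap1, the second largest rise, held neither motif in the window. A match describes letters in the window and not binding.

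Histone genes of the replication-dependent clusters made up the other large block of raised transcripts. Of 24 tested, 23 rose, none fell and the median was 3.35. Hist1h2ap, an H2A gene, had 1151, 1359 and 1099 CPM in TAC2, against 41.9, 61.0 and 69.8 CPM in TAC1 (4.43 ± 0.23 log2, adjusted p = 0.00522, edgeR). The linker histone gene Hist1h1b had 524, 697 and 272 CPM in TAC2, against 20.8, 33.7 and 21.7 CPM in TAC1, with library 2 highest and library 3 lowest in TAC2. Hist1h3b had 26.7, 38.8 and 19.5 CPM in TAC2 and 0.761, 1.46 and 0.214 CPM in TAC1, and Hist1h2ak had 4.33, 5.36 and 2.22 CPM in TAC2, while TAC1 showed at most 0.194 CPM and no UMI in library 3. The 1 histone gene that missed the threshold, Hist1h2bc, had 149.6, 126 and 254 CPM in TAC2, against 46.4, 61.9 and 48.9 CPM in TAC1 (adjusted p = 0.08, edgeR), with a basal mean of 158 CPM. Cluster histone genes are near-identical and most of their transcripts lack a poly(A) tail, while the labels give poly(A) RNA as the molecule captured, so values of single members are uncertain.

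Origin licensing showed the opposite direction. Of 22 genes of licensing and the replication fork, 18 fell in TAC2, 1 rose and 3 missed the threshold, and the median was -1.06. Mcm6, a subunit of the MCM helicase ring, had 53.9, 56.1 and 29.8 CPM in TAC2, against 140.5, 148 and 136 CPM in TAC1. Mcm2 had 25.8, 27.7 and 16.974 CPM in TAC2, against 69.3, 78.8 and 73.9 CPM in TAC1, Mcm3 45.6, 46.9 and 27.4 CPM in TAC2, against 119.9, 121 and 109 CPM in TAC1 and Mcm4 37.3, 42.0 and 25.4 CPM in TAC2, against 102, 113 and 91.0 CPM in TAC1. The TAC1 libraries lay close together for each, while TAC2 was lowest in library 3. Their log2 fold changes were -1.61 ± 0.23 (SE), -1.65 ± 0.14 (SE), -1.55 ± 0.14 (SE) and -1.55 ± 0.07 (SE) (adjusted p = 0.0337, 6.7e-04, 0.00308 and 3.2e-09, edgeR); for Mcm6 the adjusted p was 0.0725 when low-count genes were kept in. Mcm5, another MCM subunit, and Gins2, of the GINS part of the helicase, fell by 1.13 and 1.65 on the log2 scale. Dtl, which directs the licensing factor Cdt1 to degradation in S phase, had 25.0, 27.7 and 18.006 CPM in TAC2, against 48.5, 55.3 and 44.8 CPM in TAC1. Orc1, the origin recognition subunit that is lost after origins fire, fell by 1.89, with 2.58, 2.53 and 1.75 CPM in TAC2, against 9.56, 9.46 and 6.54 CPM in TAC1. A pair of abundant members fell less: Gmnn (geminin), the inhibitor of Cdt1, had 111, 127 and 86.2 CPM in TAC2, against 141, 159.7 and 136 CPM in TAC1 (-0.43 ± 0.06 (SE); -0.72 with thinned cells and -0.27 with reassigned classes), and Tipin, of the fork protection complex, had 88.4, 84.8 and 61.5 CPM in TAC2, against 129, 125 and 125 CPM in TAC1 (-0.69 ± 0.10 (SE)).

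The other replication genes divided. DNA polymerase and lagging strand genes had 8 lower, 1 higher and 13 not passing of 22 (median -0.18). Their share of calls was near that of all genes tested, 39.2% (20.6% lower and 18.6% higher). Called members of this list were 14 without library 3 and 4 without the library block. Pole2, a subunit of the leading strand polymerase, fell by 1.16 (0.74 with reassigned classes), with 11.8, 10.2 and 8.17 CPM in TAC2, against 23.1, 21.9 and 23.1 CPM in TAC1, and Rfc3, of the clamp loader, fell by 0.84. Pcna, the sliding clamp, had 184, 179 and 121 CPM in TAC2, against 203, 215 and 243 CPM in TAC1 and Lig1, which seals Okazaki fragments, had 86.8, 98.8 and 49.971 CPM in TAC2, against 105, 137 and 101 CPM in TAC1; neither passed the test over 3 libraries. Pcna passed without library 3 (-0.20 log2), and Lig1 passed without any 1 of the libraries (-0.71 without library 1, -0.60 without library 2 and -0.38 without library 3), with DESeq2 (-0.57) and with thinned cells (-0.80). Deoxynucleotide synthesis genes went both ways, 3 higher and 4 lower of 12 (median -0.14); without library 3 all 12 were called. Tk1 (thymidine kinase) rose by 0.91, with 87.3, 92.7 and 83.8 CPM in TAC2, against 41.5, 51.6 and 48.0 CPM in TAC1, and Rrm2, the S phase subunit of ribonucleotide reductase, rose by 0.70, with 132, 115 and 88.0 CPM in TAC2, against 68.5, 70.5 and 67.2 CPM in TAC1 (adjusted p = 0.00618, and 0.0568 with equal numbers of cells, edgeR). Nme1, a nucleoside diphosphate kinase, fell by 0.37, and Dut, which removes dUTP, had 232, 243 and 187 CPM in TAC2, against 245, 271 and 303 CPM in TAC1 and missed the threshold.

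Repair genes also went both ways, 6 higher and 6 lower of 20 (median 0.05), against 18.6% higher and 20.6% lower over all genes. Ung, the glycosylase that removes uracil from new DNA, had the largest fall of any abundant gene, with 8.0012, 9.34 and 3.17 CPM in TAC2, against 56.0, 54.1 and 52.9 CPM in TAC1 (-2.97 ± 0.29 log2, adjusted p = 0.00862, edgeR). The basal mean was 1.98 CPM, and all TAC2 libraries were above it. Fancd2, a Fanconi anaemia protein that marks stalled forks, rose by 1.60 (0.90 at equal depth per cell), with 13.4, 12.1 and 11.8 CPM in TAC2, against 3.95, 4.22 and 4.29 CPM in TAC1. Usp1, which removes ubiquitin from Fancd2 and Pcna, rose by 0.22 (not called without library 1, adjusted p = 0.0647, edgeR), and Atad2 had 115, 122 and 76.1 CPM in TAC2, against 94.1, 106 and 93.5 CPM in TAC1, with overlapping classes. Of 13 genes that copy chromatin 7 fell and 4 rose (median -0.49). Hells, a chromatin remodeller, had 48.6, 55.3 and 24.0 CPM in TAC2, against 138, 143 and 103 CPM in TAC1 (-1.60 ± 0.17 log2, adjusted p = 0.00846, edgeR), and Nasp, a histone chaperone, fell by 0.91. Asf1b, the histone chaperone of dividing cells, rose by 1.30, with 53.6, 58.7 and 42.0 CPM in TAC2, against 19.1, 23.4 and 21.6 CPM in TAC1, and Lmnb1 (lamin B1) rose by 1.00. Over the 5 replication lists together 43 of 89 genes fell and 15 rose.

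The G1 part of the cycle was lower in TAC2, with 9 of 18 tested genes lower, 2 higher and a median of -0.36. Over all genes tested 20.6% were lower and 18.6% higher. The D-type cyclins, which start the cycle in response to growth signals, had 562, 535 and 301 CPM in TAC2, against 901, 817 and 574 CPM in TAC1 for Ccnd1 and 171, 177 and 88.9 CPM in TAC2, against 372, 344 and 247 CPM in TAC1 for Ccnd2. In both, library 3 was lowest in each class. They fell by 0.74 and 1.17 on the log2 scale (adjusted p = 6.9e-06 and 0.00406, edgeR), and Ccnd1 lost the call without the library block (adjusted p = 0.108). E2f1, the factor that opens S phase, had 11.3, 14.1 and 5.16 CPM in TAC2, against 26.2, 33.6 and 25.8 CPM in TAC1 and fell by 1.47. Cks1b, a partner of Cdk2 and Cdk1, went the other way, with 214, 246 and 269.5 CPM in TAC2, against 85.2, 100.4 and 87.1 CPM in TAC1 (1.41 ± 0.06 (SE)).

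Promoters of the genes that fell were searched for the same 4 E2F sequences, which can overlap each other, in the same window and on both strands. Of the 12 genes with the largest fall, 9 had a window and 4 of these (44.4%) held an E2F sequence. In the licensing list it was 7 of 16 (43.8%), in the 5 replication lists 20.0% of 70, in the 3 mitosis lists 7.35% of 68, and over all tested genes with a window 3.70%. The promoters of 3 genes are shown with the E2F matches in capitals, again picked after the matches were known: Mcm6 at chr1:128359706-128359825 (minus strand), Dtl at chr1:191575545-191575664 (minus strand) and Hells at chr19:38930870-38930989 (plus strand).
Mcm6: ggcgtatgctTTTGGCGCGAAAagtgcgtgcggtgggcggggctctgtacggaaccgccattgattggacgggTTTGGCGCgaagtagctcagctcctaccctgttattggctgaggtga
Dtl: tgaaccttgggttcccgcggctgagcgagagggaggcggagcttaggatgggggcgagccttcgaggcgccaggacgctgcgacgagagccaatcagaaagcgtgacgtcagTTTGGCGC
Hells: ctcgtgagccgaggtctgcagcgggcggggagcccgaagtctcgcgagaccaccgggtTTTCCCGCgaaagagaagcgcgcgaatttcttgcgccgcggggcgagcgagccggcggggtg
Mcm6 showed 3 matches, of which 2 overlap in 1 run on opposite strands. In Dtl the match ended at the base before the start, and in Hells it lay near the middle of the bases shown. Mcm2, Mcm3, Ung, Aldoa and Cd3eap held no E2F sequence in the window.

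**Figure D3:**
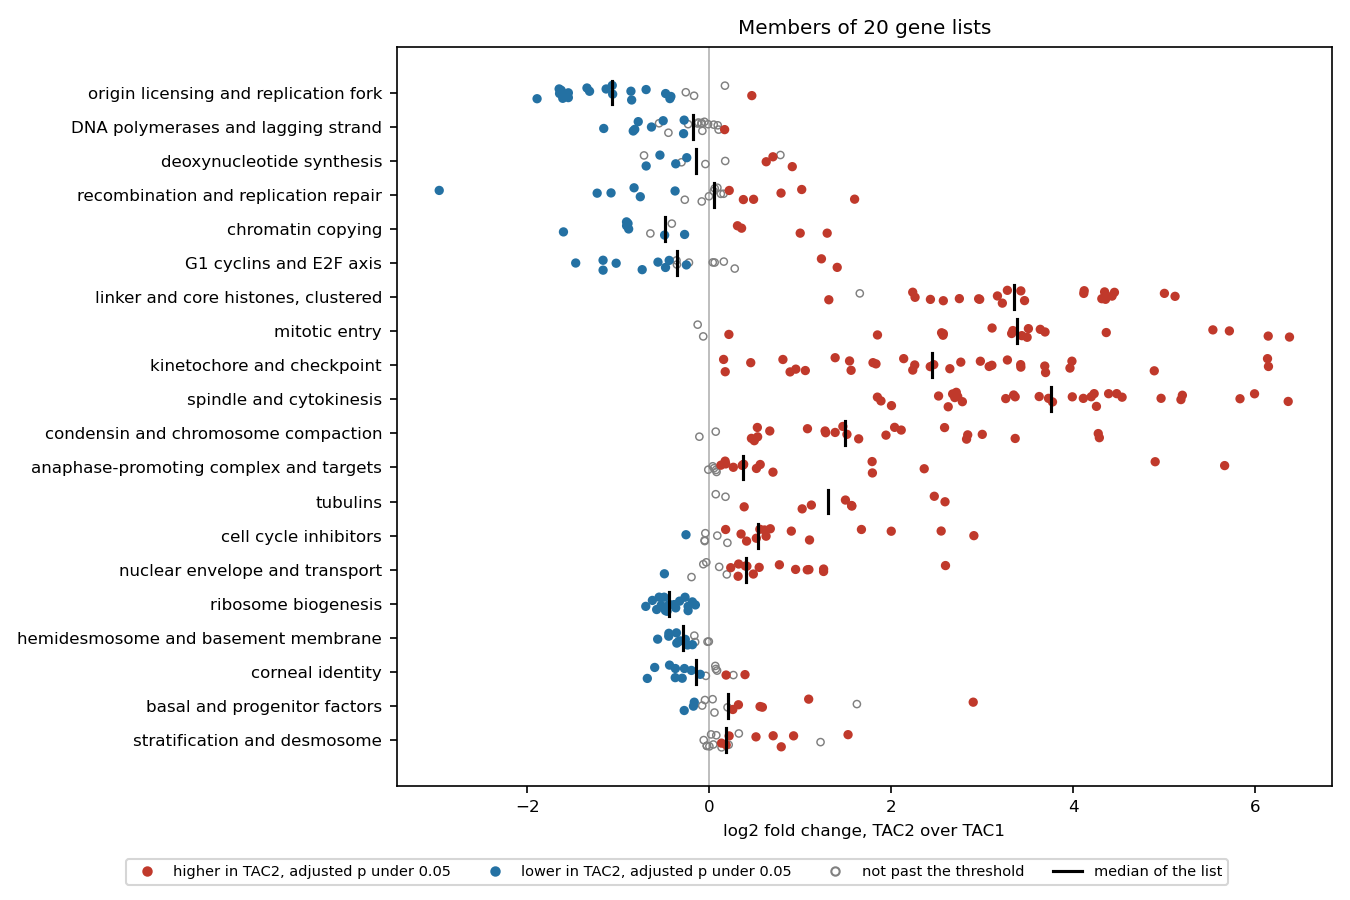
Each point is a tested member of 1 of 20 gene lists, placed by its log2 fold change, TAC2 over TAC1; filled red points were higher and filled blue points lower in TAC2 at an adjusted p under 0.05, open points were not called, and black bars are list medians. The mitosis and histone lists lie right of 0, apart from Mybl2 and Pkmyt1, with medians between 2.45 and 3.75, the licensing list lies left (-1.06), and ribosome biogenesis lies wholly left (-0.44).

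Levels were also taken in the basal class and in the class labelled LSC. Summed over the 22 licensing genes, TAC2 had 729 ± 170.4 CPM of its own total, TAC1 had 1315 ± 108 and basal cells had 172 ± 39.9 (SD, n = 3 libraries each). Over the 82 mitosis genes the values were 8774 ± 732 CPM in TAC2, 1194 ± 135 in TAC1 and 370.3 ± 15.96 in basal cells. Over the 25 clustered histone genes they were 3549 ± 621 CPM in TAC2, 294 ± 49.7 in TAC1 and 402 ± 44.7 in basal cells. TAC1 was above the basal class for licensing and mitosis genes and below it for histone genes, and TAC2 lay between TAC1 and basal cells for licensing genes. Single genes did not all follow the sums: the basal mean of Cenpf, 11.7 CPM, was above its TAC1 values and that of Ube2c, 8.89 CPM, was near them. The basal means of Mcm6 and Mcm3, 17.7 and 6.53 CPM, were far below the TAC1 values. The LSC class had 359 ± 125 CPM for licensing genes, 1469 ± 200 for mitosis genes and 441 ± 81.6 for clustered histone genes (SD, n = 3 libraries). Its means for mitosis and histone genes were above those of TAC1. Differences from the basal and LSC classes were not tested.

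Counts per cell were compared after each cell was thinned to 2000 UMIs, which left out 187 shallower TAC2 cells and 30 shallower TAC1 cells. At least 3 UMIs of the 82 mitosis genes were found in 88.9% ± 1.46 of TAC2 cells and 34.2% ± 4.99 of TAC1 cells (SD, n = 3 libraries). At least 3 UMIs of the 89 genes of the 5 replication lists were found in 80.4% ± 5.64 of TAC2 cells and 96.5% ± 1.26 of TAC1 cells. Cells carrying both made up 74.8% ± 4.93 of TAC2 and 33.8% ± 5.06 of TAC1. Cells that reached 3 UMIs of replication genes but not of mitosis genes made up 5.56% ± 0.828 of TAC2 and 62.7% ± 4.26 of TAC1. At least 1 mitosis UMI was present in 96.0%, 97.0% and 98.0% of TAC2 cells and in 76.9%, 81.4% and 75.0% of TAC1 cells, so that split rests on the cut of 3 UMIs. Cells that reached 3 UMIs of mitosis genes but not of replication genes made up 14.1% ± 5.28 of TAC2 cells and 0.382% ± 0.205 of TAC1 cells. The TAC2 share was 13.7%, 9.03% and 19.6% in libraries 1, 2 and 3. All of these differences had 1 direction in 3 of 3 libraries, and the exact sign-flip test over 3 pairs cannot go below its p of 0.25.

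The same count reached basal cells at 4.90% for mitosis and 50.4% for replication genes, wing cells at 2.89% and 28.1%, and superficial cells (labelled Squam), which as a class do not divide, at 0.868% ± 0.152 and 6.35% ± 0.707. Wing and superficial cells together gave the background of the measure. It thus ran from 0.868% to 2.89% for mitosis genes and from 6.35% to 28.1% for replication genes. At 2000 UMIs superficial cells had fewer genes per cell, 707 ± 8.08, against 880 ± 6.81 in wing cells (SD, n = 3 libraries). Without thinning the shares lost most of their contrast, at 96.6% to 98.4% of TAC2 cells and 78.6% to 95.3% of TAC1 cells for mitosis genes, with 23.5% to 52.5% of superficial cells also counted. Clustered histone transcripts took 0.333% ± 0.0567 of UMIs in TAC2 cells and 0.0299% ± 0.00507 in TAC1 cells at 2000 UMIs. The shares were 0.0419% ± 0.00389 in basal, 0.0246% ± 0.00405 in wing and 0.0592% ± 0.0167 in superficial cells. TAC1 thus lay below the basal and superficial classes in this measure. Genes detected per cell were 928 ± 8.57 in TAC2 and 877 ± 13.5 in TAC1 at that depth. A cut of 3 UMIs is a range and not a cell cycle phase.

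**Figure D4:**
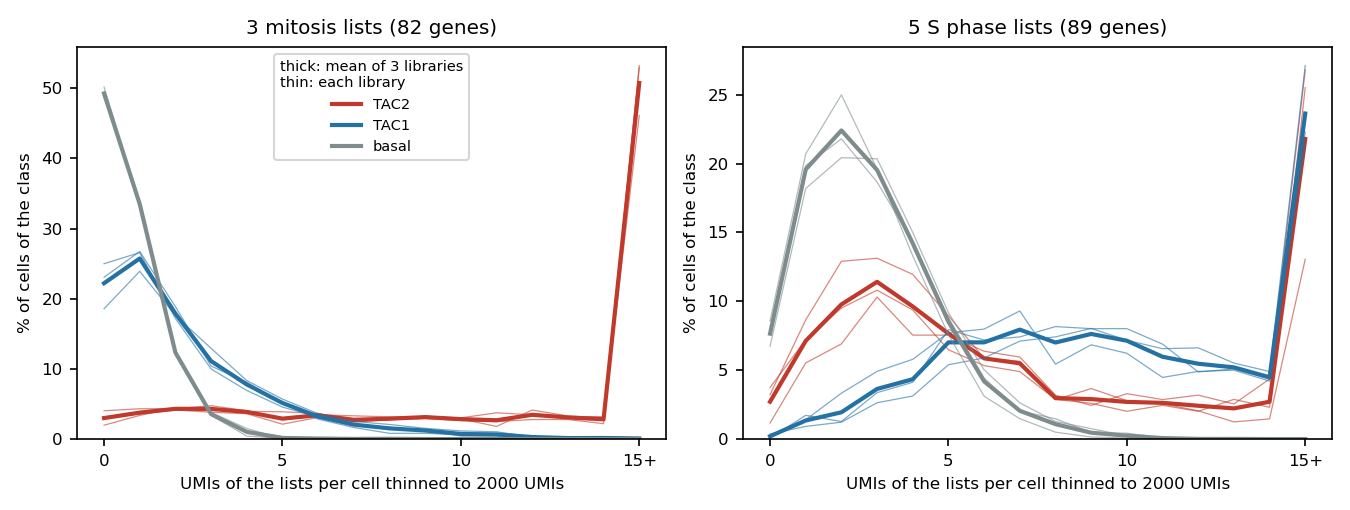
Share of the cells of a class (vertical axis, %) by the number of UMIs of the 82 mitosis genes (left) and the 89 replication genes (right) in cells thinned to 2000 UMIs; cells with 15 or more are pooled at the right end. Thick lines are means and thin lines the 3 libraries, in red for TAC2, blue for TAC1 and grey for basal cells. On the left TAC2 cells peak at the pooled end and TAC1 cells at 0 to 2 UMIs, and on the right TAC2 cells form a peak near 3 UMIs, close to the basal peak, besides the pooled end.

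Inhibitors of the cycle were higher in TAC2 as well: 14 of 20 rose, 1 fell and the median was 0.54. The shares over all genes tested were 18.6% higher and 20.6% lower. Summed over the list, the mean was 644 CPM of the class's own total in TAC2, 375 in TAC1 and 411 in basal cells. It was higher than in TAC2 in wing (863), superficial (897) and conjunctival cells (756). Cdkn2d (p19), an inhibitor of Cdk4 and Cdk6, had 92.3, 86.8 and 89.2 CPM in TAC2, against 13.4, 10.1 and 12.4 CPM in TAC1 (2.91 ± 0.07 log2, adjusted p = 2.6e-16, edgeR). The basal mean of Cdkn2d, 12.9 CPM, was near the TAC1 values. Cdkn2a, whose locus encodes p16 and ARF, was low, with 12.5, 5.79 and 7.85 CPM in TAC2, against 2.19, 0.679 and 1.82 CPM in TAC1, and rose by 2.55. Cdkn1b (p27) had 97.9, 93.6 and 151 CPM in TAC2, against 64.9, 65.2 and 92.1 CPM in TAC1 and rose by 0.61, but lost the call without the library block (adjusted p = 0.0962). Targets of p53, the DNA damage response factor, had 4 higher and 5 lower of 12 tested (median -0.08). DESeq2 called 1 of them, edgeR called 4 without library 1 and 4 without library 2, and without the library block it called 0, with 3 at an unadjusted p under 0.05. Among them Tnfrsf10b, a death receptor, fell by 0.72 and Trp53inp1 rose by 0.71, both below 7 CPM in every sum and both without a call in DESeq2.

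Transcripts of ribosome biogenesis and ribosomal protein genes were lower in TAC2. All 17 genes of ribosome biogenesis fell, with a median of -0.44, and 80 of 82 cytoplasmic ribosomal protein genes fell with a median of -0.27. Without the library block 10 biogenesis genes and 18 ribosomal protein genes were called, and with thinned cells 11 biogenesis genes were. Nop56, of the complex that methylates ribosomal RNA, had 61.9, 61.0 and 44.3 CPM in TAC2, against 95.3, 92.3 and 84.0 CPM in TAC1 (-0.70 ± 0.06 log2, adjusted p = 1.1e-07, edgeR). Npm1 (nucleophosmin) had 521, 615 and 454 CPM in TAC2, against 686, 777 and 747 CPM in TAC1 and Ncl (nucleolin) 407, 441 and 276 CPM in TAC2, against 496, 535 and 406 CPM in TAC1. For each of the 3, TAC2 was lower in every library, and for Ncl the call was lost without the library block (adjusted p = 0.242). Rpl38 fell by 0.39 and Rps27 by 0.40, with 3827, 3266 and 3823 CPM in TAC2, against 4896, 4214 and 5315 CPM in TAC1 for Rps27. Ribosomal protein genes took 30.4%, 30.1% and 30.8% of a cell's UMIs at the median in TAC2 and 33.5%, 33.0% and 35.1% in TAC1. When libraries were scaled by totals alone the medians were -0.34 for ribosome biogenesis and -0.17 for ribosomal proteins. Cd3eap, a subunit of RNA polymerase I that was among the 12 largest falls, had 20.7, 25.3 and 17.5 CPM in TAC2, against 46.0, 48.2 and 46.4 CPM in TAC1; it overlaps another gene on the opposite strand, and the strand setting of the counting is not given.

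Genes of basal attachment fell by small amounts. Of 14 genes of hemidesmosomes and basement membrane 10 fell, none rose and the median was -0.29. Over all genes tested 20.6% fell and 18.6% rose. Col17a1, the hemidesmosome collagen, had 1063, 921 and 931 CPM in TAC2, against 1449, 1216 and 1302 CPM in TAC1 (-0.44 ± 0.03 log2, adjusted p = 8.6e-09, edgeR), and Lama3, a chain of laminin-332, fell by 0.57, with 37.8, 35.8 and 31.9 CPM in TAC2, against 55.9, 53.2 and 47.1 CPM in TAC1. Dst, the plakin that ties hemidesmosomes to keratins, fell by 0.34. The basal means of Col17a1 and Dst were 1212 and 372 CPM. Itga3 fell by 0.45 but not past the threshold without the library block (adjusted p = 0.0578).

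Corneal identity genes were mostly lower, 9 of 16 with 2 higher (median -0.15), against 20.6% lower and 18.6% higher over all genes. The median was -0.048 with totals alone and -0.24 without the cells of highest doublet score, and 3 members were called without the library block. Krt12, the keratin of the cornea, had 14994, 12664 and 14893 CPM in TAC2, against 19197, 17056 and 18719 CPM in TAC1, and Aldh3a1, the corneal crystallin enzyme that absorbs ultraviolet light, had 13070.4, 11279.6 and 10424 CPM in TAC2, against 16662, 14668 and 13683 CPM in TAC1. Both fell by 0.37 on the log2 scale, and the Aldh3a1 call was lost without the library block (adjusted p = 0.0592). Slurp1, a secreted Ly6 family protein, fell by 0.60, with 3846, 3708 and 4708 CPM in TAC2, against 5917, 5974 and 6608 CPM in TAC1. Pax6, the master factor of the eye, had 476, 459.9 and 469.7 CPM in TAC2, against 451, 439.7 and 433 CPM in TAC1, slightly higher in every TAC2 library but not past the threshold (adjusted p = 0.0534, edgeR; named after its values were seen). Basal and progenitor factors had 6 higher and 3 lower of 15 (median 0.20). Without library 2 the median was 0.054, without library 1 the members called were 5, and without the library block 1 was. Krt5 had 5304, 5346 and 4709 CPM in TAC2, against 6093, 5937 and 5299 CPM in TAC1 and fell by 0.17 (0.07 with totals alone), whereas Krt14, its usual partner, rose by 0.58, with 855, 2026 and 729.5 CPM in TAC2, against 567, 1391 and 474 CPM in TAC1. Krt17 had 14.8, 79.5 and 10.5 CPM in TAC2, against 0.808, 12.029 and 1.72 CPM in TAC1 and rose by 2.90. Krt14 and Krt17 were highest in library 2 in both classes, the classes overlapped across libraries for all 3 keratins, and the calls of Krt5, Krt14 and Krt17 were lost without the library block (adjusted p = 0.243, 0.607 and 0.244). Id1, an inhibitor of differentiation factors, rose by 1.09, again lost without the block (adjusted p = 0.122).

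Stratification and desmosome genes had 8 higher and none lower of 19 tested (median 0.19), against 18.6% higher and 20.6% lower over all genes. Their share of calls was near the 39.2% called over all genes tested. The median was 0.060 without the cells of highest doublet score and 0.068 without cells holding mucosal keratins, and the superficial and conjunctival markers given in the next paragraph moved in the same direction. Members called were 4 with DESeq2, 14 without library 3, 3 of 15 with thinned cells and 1 without the library block. The most abundant, Perp and Dsp, had 875, 951 and 914 CPM in TAC2, against 906, 973 and 858 CPM in TAC1 and 626, 676 and 667 CPM in TAC2, against 678, 713 and 661 CPM in TAC1, with overlapping classes and no call. The members that rose most were scarce: Sprr1a, a cornified envelope precursor, had 1.25, 5.65 and 1.19 CPM in TAC2, against 0.333, 2.28 and 0.107 CPM in TAC1 and Tgm1, the enzyme that crosslinks the envelope, had 1.00, 1.96 and 1.51 CPM in TAC2, against 0.618, 1.02 and 0.643 CPM in TAC1. Neither call held without the library block (adjusted p = 0.365 and 0.137, edgeR), and that of Tgm1 was also lost without library 1 (0.0559) and without library 2 (0.142).

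Markers of conjunctival and superficial cells were mostly higher in TAC2. The 5 conjunctival keratins summed to 87.7 to 202.8 CPM in TAC2 and 23.2 to 75.0 CPM in TAC1, and 4 of 5 rose (median 1.81; 1.04 without the cells of highest doublet score), of which 1 was called without the library block. Krt13 had 55.3, 96.5 and 69.3 CPM in TAC2, against 24.9, 47.1 and 18.1 CPM in TAC1 and Krt4 had 16.002, 58.1 and 13.2 CPM in TAC2, against 4.75, 17.2 and 2.57 CPM in TAC1. The call of Krt4 was lost without the block (adjusted p = 0.294, edgeR), and that of Krt13 without the block (0.0587), without the filter on low counts (0.092) and with equal numbers of cells (0.0923). The superficial cell list, Muc4, Krt78, Ly6g6c, Muc1 and Cldn4, summed to 51.8 to 55.8 CPM in TAC2 and 17.1 to 32.0 CPM in TAC1, with 3 of 5 higher (median 0.72; 0.20 without the cells of highest doublet score). The limbal list, Gpha2, Cd63, Ifitm3 and Krt15, summed to 536 to 1562 CPM in TAC2 and 204 to 802 CPM in TAC1, with 2 of 4 higher. Krt15 had the most UMIs in every TAC2 sum, but Gpha2 had more in the TAC1 sum of library 3 (782 against 753). Krt15 had 501, 1075 and 381 CPM in TAC2, against 161, 482 and 80.7 CPM in TAC1 and missed the threshold (adjusted p = 0.057, edgeR). It passed with DESeq2 (1.69 log2), without library 2 (1.92) and with reassigned classes (1.75). Gpha2 was not called (-0.04 log2, adjusted p = 0.917, edgeR). Cells with at least 3 UMIs of Krt4, Krt13 and Krt19 at 2000 UMIs made up 1.44%, 1.06% and 1.03% of TAC2 cells and 0.0749%, 0.307% and 0.0877% of TAC1 cells, against 36.7% to 38.2% of wing cells. Muc4, a membrane mucin, rose by 0.71 with all cells (-0.0018 without the 10% of cells with the highest doublet scores). Without the cells holding these keratins the log2 fold change of Krt4 was 1.10, that of Krt13 0.46 and that of Muc4 0.16 (adjusted p = 0.314 for Muc4, edgeR), and 4513 genes were called in all. Doublet scores and keratins aside, the part of other cells in the rises of marker genes was not tested. Of the immune markers Ptprc had 0 UMIs in all 6 sums and 1 of 8, Cd68, was abundant enough to test (0.03); no stromal or endothelial marker was.

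Among signalling genes 8 of 18 were called in the Wnt list, 7 of 13 in the Notch list, 9 of 12 in the EGF receptor list and 8 of 17 among immediate early genes, against 39.2% of all genes tested. In the Wnt list 6 of 18 fell and 2 rose (median -0.16), against 20.6% lower and 18.6% higher over all genes. The ligand Wnt10a fell by 0.64, with 66.6, 93.1 and 51.6 CPM in TAC2, against 108, 137 and 82.9 CPM in TAC1, and Wnt4 fell by 0.20 (0.10 with totals alone), with 486, 535 and 458 CPM in TAC2, against 565, 615 and 516 CPM in TAC1, while the receptor gene Fzd2 rose by 0.62 and Ctnnb1 (beta-catenin) by 0.18. In the Notch list 4 of 13 fell and 3 rose (median -0.08). The ligand Jag2 fell by 0.44, with 85.8, 87.7 and 57.7 CPM in TAC2, against 117, 110.3 and 85.1 CPM in TAC1, and Nrarp, a Notch target that dampens the pathway, rose by 0.62, with 31.7, 30.6 and 26.3 CPM in TAC2, against 21.3, 21.1 and 14.7 CPM in TAC1. Hes1, the best known Notch target, had 273, 206 and 272 CPM in TAC2, against 259, 217 and 264 CPM in TAC1 and no call. In the EGF receptor list 7 of 12 fell and 2 rose (median -0.18), but only 2 were called with DESeq2 or without library 2, 4 without library 1, 3 of 10 with thinned cells and 1 without the library block. Nrg1, an ErbB ligand, fell by 0.75, with 46.4, 43.4 and 32.0 CPM in TAC2, against 73.2, 70.0 and 62.2 CPM in TAC1 (1.6e-08 adjusted p, edgeR), and the receptor Egfr fell by 0.19, a call lost at equal depth per cell (adjusted p = 0.902) and without library 1 or library 2 (0.0688 and 0.0634). Without the library block the calls of Wnt10a, Wnt4, Ctnnb1, Jag2 and Egfr were lost, and that of Fzd2 was lost at equal depth (adjusted p = 0.843). Immediate early genes had 6 lower and 2 higher of 17 (median -0.12), with Klf6 higher by 0.62 and Fosb lower by 0.47. Both calls were lost without the library block (adjusted p = 0.137 and 0.587, edgeR) and that of Fosb also with thinned cells (0.299). Without the block edgeR called 0 of the 17, with 1 at an unadjusted p under 0.05, and DESeq2 with the block called 5.

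In glycolysis 6 of 15 fell and 3 rose (median -0.02), against 20.6% lower and 18.6% higher over all genes. Aldoa, the main aldolase gene, had 107, 113 and 71.9 CPM in TAC2, against 280.5, 262 and 209.7 CPM in TAC1 (-1.37 ± 0.05 log2, adjusted p = 1.5e-10, edgeR) and its relative Aldoc fell by 1.16, with 10.0, 8.04 and 7.46 CPM in TAC2, against 19.7, 18.9 and 18.7 CPM in TAC1. The basal mean of Aldoa was 255 CPM, within the TAC1 range, and all TAC2 libraries were below it. Gapdh, a later enzyme of the pathway, had 938, 1135 and 738 CPM in TAC2, against 929, 1103 and 732 CPM in TAC1 and a log2 fold change of 0.02 (adjusted p = 0.624, edgeR). In serine, one-carbon and purine synthesis 7 of 12 fell and 4 rose (median -0.28). Ppat, the first enzyme of purine synthesis, fell by 1.10, with 17.3, 17.1 and 10.2 CPM in TAC2, against 35.044, 32.3 and 28.9 CPM in TAC1, and Paics, of the same pathway, fell by 0.54, whereas Mthfd2, a mitochondrial folate enzyme, rose by 0.98, a call lost at equal depth per cell (adjusted p = 0.365).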

How the data were processed

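Single-cell RNA was measured in 3 libraries by droplet 3ʹ sequencing (10x Chromium, poly(A) RNA). The authors deposited raw UMI counts per cell and gene, with a cell class for each cell; per the submitters' processing notes Cell Ranger 5.0.0, Seurat 4 and the mm10 build were used, while no source used here names the cell filters, the treatment of doublets or the strand setting. The embedding score columns that the authors deposited beside the classes were left out. 1 library was matched to its sample by elimination.

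Counts were summed per library and class, and TAC2 was tested against TAC1 with edgeR 4.0.16 (quasi-likelihood F test, TMM, filterByExpr, robust) with the library as a block, since both classes come from the same pool of animals. Precision is set by 3 libraries. In data simulated for this comparison over 11544 genes, 98% of 2-fold changes and 71% of changes of 0.5 log2 were recovered, and 7 of the 176 calls over both sizes were false. The simulation changed 100 genes by each size, as many up as down and none scarce. Both classes were given the same library differences. The real comparison called 39.2% of genes, so these figures may not carry over to it. R 4.3.3, limma 3.58.1, DESeq2 1.42.0, Python 3.11.15, numpy 2.4.6, scipy 1.17.1, pandas 2.3.3 and scanpy 1.11.5 were used. Promoters came from RefSeq, GRCm38.p6.

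Named genes were the 12 largest changes in each direction (adjusted p under 0.05, same sign in every library, mean log2 CPM of at least 5; markers of other cells, mitochondrial, ribosomal and predicted genes left out), the 2 most abundant and 2 most changed called genes of each list, Mki67, Top2a and the markers. The members and lists were chosen with earlier results of these data known. Alternatives were DESeq2, other scaling, no filter, leaving out each library, no block, thinned cells, equal cell numbers, removal of likely doublets, and classes reassigned from 50% of the UMIs; leaving out cells with mucosal keratins, or cells under 2000 UMIs, was added after seeing the data.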

Additional observations from a re-analysis of the deposited data

How the results depend on the processing

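The 4613 calls fell to 1974 with DESeq2 (1036 higher, 938 lower in TAC2), to 1910 with cells thinned to 2000 UMIs (936 and 974) and to 1374 without the replicate block (772 and 602); with totals alone 3504 were higher and 1585 lower. Leaving out 1 library gave 2763 to 4700 calls, 1335 to 2286 higher and 1428 to 2414 lower. The median of ribosome biogenesis (-0.44) was -0.34 with totals alone, -0.28 with reassigned classes, -0.34 for deposited classes on 50% of the UMIs and -0.46 to -0.37 without 1 library, and that of ribosomal proteins was -0.17 with totals alone. The medians of the mitosis, histone, licensing and S phase lists kept their direction in each alternative run. The TAC2 minus TAC1 differences in percent of cells were -23.6 (S phase), 64.3 (mitosis) and 37.6 (both) at 1000 UMIs, -2.75, 8.70 and 6.08 without thinning, and 38.4 for both without likely doublets; genes per cell differed by 30.1 at 1000 UMIs and by -5.82, the opposite direction, without thinning.

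Signs turned for 12 named genes, none of them called in both directions. Totals alone gave 0.039 for Dsp, 0.054 for Gpha2 and 0.034 for Ranbp1. Reassigned classes gave 0.012 for Dsp, -0.022 for Gapdh, 0.12 for Gpha2, -0.022 for Perp and 0.042 for Ranbp1, and deposited classes on 50% of the UMIs 0.024 for Gpha2 and -0.0014 for Perp. Without 1 library the ranges were -0.028 to 0.24 for Atad2, -0.086 to 0.12 for Cd68, -0.33 to 0.11 for Gpha2, -0.015 to 0.073 for Hes1, -0.034 to 0.13 for Jun, -0.044 to 0.029 for Perp and -0.13 to 0.054 for Ranbp1. No block gave -0.014 for Cd68 and 0.035 for Gpha2, and thinning -0.024 for Perp and -0.029 for Usp1. Without likely doublets Cd68 was -0.0082, Krt78 -0.052, Muc4 -0.0018 and Perp -0.040, and without cells holding mucosal keratins Cd68 was -0.0020, Krt78 -0.028 and Perp -0.013. Of 122 calls among 139 named genes, 40 were lost without the block and 11 with DESeq2, and with thinning 11 of the 112 that could be tested. Members called without the block, against with it, were 5 and 10 for hemidesmosomes, 7 and 15 for cycle inhibitors, 6 and 11 for G1 genes, 7 and 11 for chromatin copying, 3 and 9 for glycolysis, 5 and 11 for serine and one-carbon synthesis, 1 and 7 for Notch and 1 and 8 for Wnt genes. For ribosomal protein genes they were 18 and 80, and for ribosome biogenesis 10 and 17. Leaving out the block ignores that both classes of a library come from the same pool of animals. Differences between libraries then add to the spread within a class, by construction. The cause of the other changes was not tested, beyond fewer UMIs or libraries by construction.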
